A study of Saccharomyces cerevisiae BY4741 with 16 samples.

Results

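The mitochondrial ribosomal protein genes of budding yeast, *Saccharomyces cerevisiae*, are nuclear genes named *MRPL*, *MRPS* or *MRP*. They were chosen as a list of 54 systematic names, of which 52 have a row among the 5218 genes of the deposited table. *MRPL3* and *MRPL10* of the list are not analysed here. All 54 names pair with such a symbol in the R64 gene table. The list was set by name and not by measured value, though with earlier results of these data known. The 52 genes encode 35 proteins of the large and 17 of the small ribosomal subunit. By protein family, 35 of them have a counterpart in bacterial ribosomes and 17 belong to families found in mitochondrial ribosomes only.

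Trimethylation of histone H3 at lysine 36 (H3K36me3) and at lysine 4 (H3K4me3) was measured by chromatin immunoprecipitation and sequencing. Cells were taken at 0 min and after 20, 40 and 60 min with 1 ug/mL of it. Rapamycin in this anchor-away strain moves RNA polymerase II out of the nucleus, per the series design, and the question is how the marks change once it has gone. Every group is labelled as the same log-phase BY4741 strain. It is MATa, with the alleles his3D1, leu2D0, ura3D0 and tor1D1 and the deletion fpr1D, and its ribosomal protein anchor is labelled RPL13-2xFKBP12-NATMX6. All groups share these labels, so no library is labelled as a strain without the anchor, and none as without rapamycin at the later times. No tagged polymerase subunit is named in the genotype label. Each mark and time has 1 immunoprecipitated library, so no p-value or replicate error can be given, and differences below describe these libraries.

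Mitochondria hold their own ribosomes, which translate the few proteins encoded by mitochondrial DNA, mostly core subunits of the respiratory chain and ATP synthase. Nearly all proteins of these ribosomes are made in the cytosol from nuclear genes and imported. H3K4me3 is placed by Set1 (COMPASS) near the start of transcribed genes, and H3K36me3 by Set2 along gene bodies behind elongating polymerase. Both enzymes act with transcribing RNA polymerase II, and the marks outlast its passage until they are removed or diluted.

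Values are the authors' signal per gene, on a scale that the labels and headers do not state, and its depth is unknown. A change is the log2 ratio of a later level to the 0 min level, after a pseudocount of 1% of the mark's median 0 min level was added to both. A gene entered with a mean over the 4 times of at least 25% of the median gene's mean, as 4861 genes did for H3K36me3 and 4826 for H3K4me3. Of the mitochondrial ribosomal protein genes, 51 passed for H3K36me3 and 52 for H3K4me3. *MRPL37*, at 0.279, 0.204, 0.179 and 0.137, did not pass for H3K36me3. A relative change is the change minus that of the median gene of the same mark and times, and a relative change of 0.32 log2 units in either direction is used below to mark genes off. The median gene stood at -0.65 for H3K36me3 and -0.18 for H3K4me3 at 60 min as deposited. Scaling each library to the lowest 5% of genes moved all 60 min changes up by 0.61 and 0.30, and scaling to column totals by 0.67 and 0.17. *FPR1*, labelled as deleted, still had a 0 min H3K36me3 level of 1.21 and an uneven course of 0.0335, 0.240 and 0.185 after it. Its H3K4me3 levels were 2.26, 1.34, 3.86 and 1.04. These values do not settle the deletion label. Whether all libraries come from the labelled strain was not tested.

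At 0 min the mitochondrial ribosomal protein genes were ordinary in H3K36me3 and a little above the middle in H3K4me3. Their H3K36me3 levels at 0 min ran from 0.277 to 2.99 with a median of 1.152, against 1.155 for all genes past the filter. Over all 52 genes the median percentile among genes with values was 52.6. For H3K4me3 the range was 1.55 to 7.22, the median 5.22 against 5.05, and the median percentile 58.6. In H3K4me3, 38 of 52 exceeded the median of all genes, as did 54.1% of all genes past the filter. In H3K36me3, 28 of 51 did, beside 53.7%. Whether the signal is per length is not stated, and these genes are short, with a median annotated length of 650 bp against 1254 bp. Among genes of similar length, the median percentiles were 57.1 for H3K36me3 and 63.1 for H3K4me3.

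At 0 min the strongest H3K36me3 stood at 2 genes for proteins at the rim of the polypeptide exit tunnel. *MRPL4* (YLR439W), of family uL29, had 2.99, 1.54, 1.84 and 1.42 at the 4 times, and *MRP20* (YDR405W), of family uL23, had 2.90, 1.5, 1.90 and 1.61. Both were far higher at 0 min than at any later time, and both were slightly higher at 40 min than at 20 min. At 60 min *MRPL16*, at 1.62, was level with *MRP20*. At the low end of the 0 min levels, *MRPL44* (family mL53) had 0.277, 0.327, 0.235 and 0.178, and *MRPL39* (bL33), the shortest of these genes at 213 bp, had 0.394, 0.307, 0.262 and 0.243. Across the 51 genes, 0 min H3K36me3 and length had a Spearman rho of 0.61, against 0.17 across 4603 genes with a length. These cover unlike ranges, since the 51 genes span 213 to 1185 bp and all genes past the filter 78 to 14733 bp. No rho was computed within genes of similar length. All of these levels come from the 1 library at 0 min.

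*MRP20* also had the highest H3K4me3 at 0 min, with 7.22, 7.53, 8.32 and 7.63, followed by *MRPL28* (mL40) with 7.18, 6.91, 7.83 and 7.68. At 60 min *MRPL28* was the higher. Their 60 min values were above their 0 min values as deposited. *MRP17*, for a small subunit protein of family bS6, had the lowest H3K4me3 at every time, 1.55, 1.40, 1.37 and 1.27, at percentile 9.08 of all genes at 0 min. Its H3K36me3 was not low, at 1.29 and percentile 59.6. *MRPL39* was next from the bottom in H3K4me3, with 2.90, 2.91, 2.84 and 2.52.

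**Figure D1:**
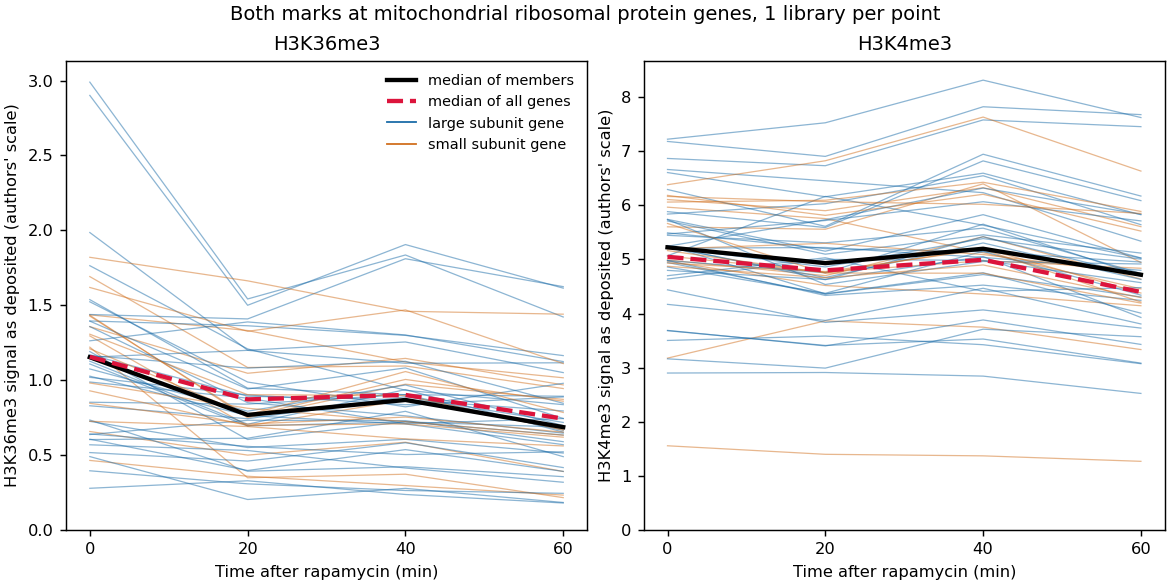
Signal as deposited (vertical axis, the authors' scale) against time after rapamycin in minutes, 1 thin line per mitochondrial ribosomal protein gene past the filter, coloured by subunit, with the median of these genes (black) and of all genes past the filter (dashed red). The median H3K36me3 line goes from 1.152 to 0.685, and the 2 highest lines at 0 min are *MRPL4* at 2.99 and *MRP20* at 2.90.

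After rapamycin, H3K36me3 of the mitochondrial ribosomal protein genes was lower as deposited by about as much as at other genes. Their median level was 1.152, 0.767, 0.867 and 0.685 at the 4 times, and that of all genes past the filter 1.155, 0.871, 0.900 and 0.742. At 60 min 50 of 51 genes were below their 0 min level, as were 95.2% of all genes. The median change was -0.62, which is 0.027 above the median gene and corresponds to 64.5% of the 0 min level, against 63.5% for all genes. With scaling to column totals that median was 0.039, and with scaling to the lowest 5% of genes it was -0.021, so its direction rests on the scale of the libraries. A level at least 1.5-fold lower was seen at 29 of 51 genes, beside 56.9% of all genes past the filter, which is the same share. From 0 to 40 min 14 of 51 were (27.5%), and from 20 to 60 min 4 of 51 (11%). At all 3 later times 42 of 51 were below 0 min (79.6% of all genes) and 0 were above it (2.94%). These times share the single 0 min library.

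The middle 50% of their relative changes spanned 0.47 log2 units at 60 min, against 0.50 for all genes. At least 0.32 log2 units below the median gene were 6 of 51, beside 19.4% of all genes, and as far above it 10 of 51, beside 19.5%. With genes of similar length as the background these counts were 8 and 9. Below the median gene at all were 23 of 51, beside 50%. At all 3 later times 18 of 51 lay below it (33.2% of all genes) and 20 above it (32.9%). The 6 below were *MRP2*, *MRPL33*, *MRP7*, *MRPL4*, *MRPL15* and *MRPL20*. The 10 above were *MRPL16*, *MRPL36*, *MRPL27*, *MRPL13*, *MRPL6*, *MRPL7*, *MRPL11*, *MRPL23*, *MRPL50* and *MRP49*, all of the large subunit. *MRP21*, *MRPS9* and *MRPS5* of the small subunit lay just within these bounds, at -0.32, -0.31 and 0.31, and are named for that.

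*MRP2* (YPR166C) had the lowest H3K36me3 change of the list by a wide margin. It encodes the small subunit protein of family uS14 and lies on chromosome XVI (R64, chrXVI:876282-876629, reverse strand). Its levels were 1.22, 0.347, 0.371 and 0.214. All later values lay far under the 0 min value, with 17.6% of it at 60 min. Relative to the median gene that is -1.80, against -0.73 for the next gene. The gene is 348 bp long, and most of its difference was already there at 20 min (-1.37). Without the 0 min library, from 20 to 60 min, its relative change was -0.44. The 60 min H3K36me3 level of *MRP2* lies just below the filter of 0.219, which is set on the mean over the 4 times. Its H3K4me3 went the other way, with 3.17, 3.86, 3.75 and 3.33.

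The next 3 genes from the bottom belong to the large subunit. *MRPL33* (uL30), a gene of 261 bp, had H3K36me3 of 0.489, 0.202, 0.276 and 0.182, a relative change of -0.73 at 60 min. It was lower at each later time than at 0 min, at -0.82 relative to the median gene at 20 min and -0.44 at 40 min. From 20 to 60 min it stood at 0.085, so its difference lay between the 0 and 20 min libraries. The 20 and 60 min levels of *MRPL33* lie below the filter of 0.219. *MRP7*, for the protein of family bL27 near the peptidyl transferase centre, had 1.76, 1.21, 0.931 and 0.836, lower at each successive time, and a relative change of -0.42. *MRPL4* of the tunnel rim also stood at -0.42 relative to the median gene. Its values after rapamycin spanned 0.37 log2 units, highest at 40 min, and from 20 to 60 min it was at 0.11 relative to the median gene.

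At the other end, *MRPL16* (YBL038W) had the highest H3K36me3 change. It encodes the large subunit protein of family uL16 and lies on chromosome II (R64, chrII:146187-146885, forward strand). Its levels were 1.44, 1.41, 1.81 and 1.62. It is the 1 gene of the 51 that was higher at 60 min than at 0 min as deposited, and it stood at 0.82 relative to the median gene, or 0.43 from 20 to 60 min. Its H3K4me3 levels were 6.61, 6.16, 6.60 and 5.83, at percentile 90.6 of all genes at 0 min. The relative H3K4me3 change at 60 min was 0.0029.

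*MRPL36*, for the protein of family bL31, had nearly level H3K36me3 of 1.152, 1.20, 1.11 and 1.12, which is 0.60 above the median gene at 60 min. *MRPL27* (mL41) had 0.636, 0.731, 0.729 and 0.588, a relative change of 0.54. *MRPL13* (mL50) had 1.26, 1.39, 1.30 and 1.12, a relative change of 0.48. *MRPL27* and *MRPL13* were higher at 20 and 40 min than at 0 min and lower at 60 min. From 20 to 60 min they stood at -0.082 and -0.076 relative to the median gene, and *MRPL36* at 0.12, so most of what set these 3 genes apart lay between the 0 and 20 min libraries.

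**Figure D2:**
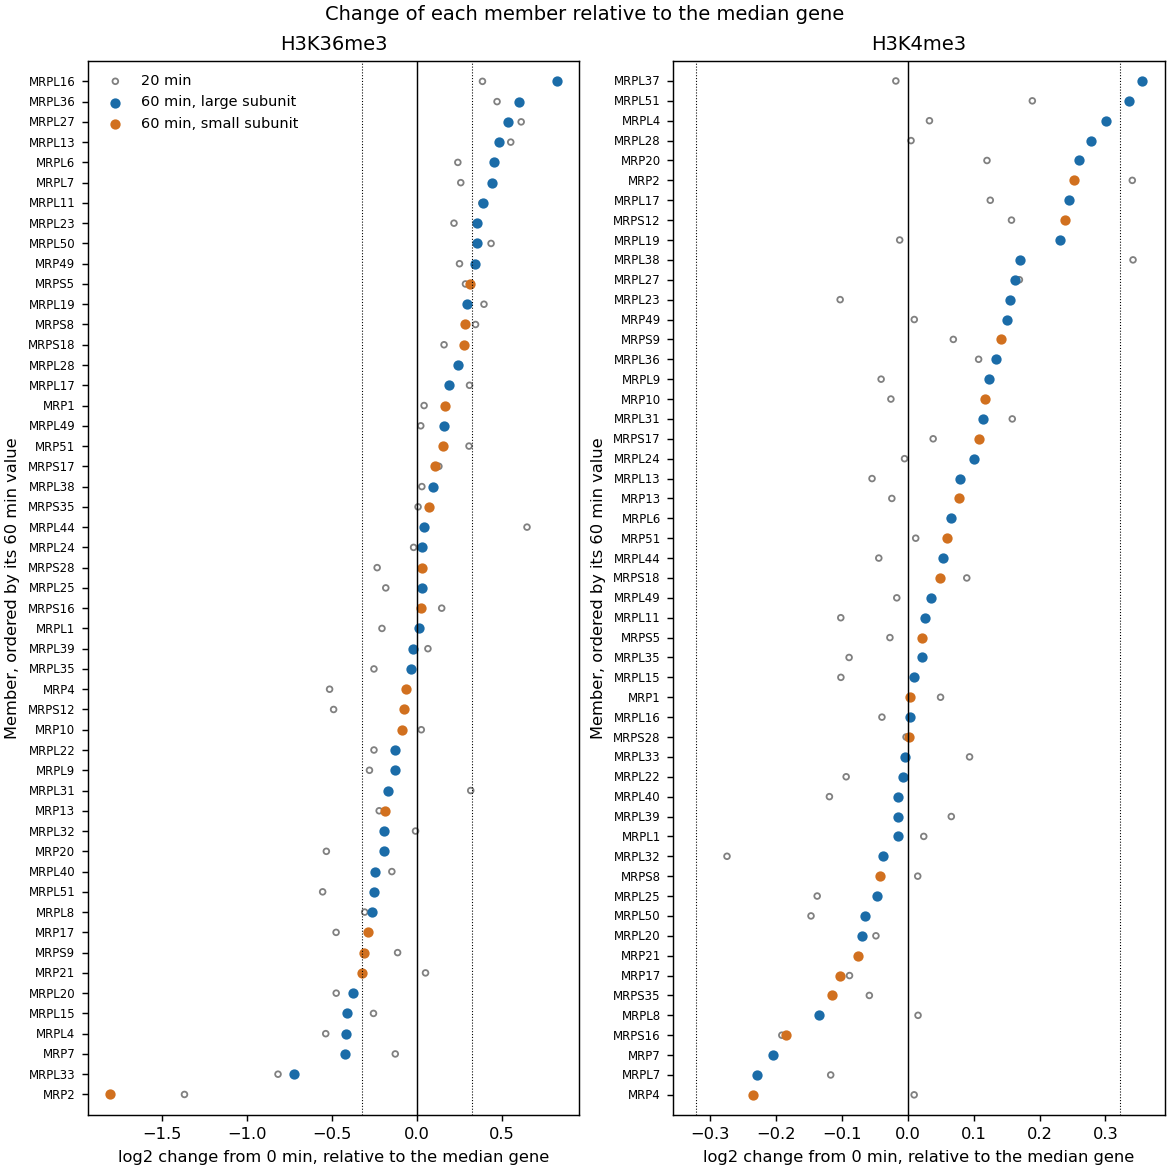
Log2 change from 0 min relative to the median gene (horizontal axis) for each mitochondrial ribosomal protein gene past the filter, ordered by its 60 min value, with filled points for 60 min coloured by subunit and open points for 20 min; dotted lines mark 0.32 log2 units. H3K36me3 runs from *MRP2* at -1.80 to *MRPL16* at 0.82, and H3K4me3 from *MRP4* at -0.23 to *MRPL37* at 0.36, on a narrower axis.

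The large and small subunit genes had nearly the same median H3K36me3 change, at -0.62 and -0.63. Their relative medians at 60 min were 0.027 and 0.021. At 60 min the middle 50% of relative changes spanned 0.54 log2 units over the 34 large subunit genes and 0.34 over the 17 small subunit genes. Between the 20 and 60 min libraries alone, these spans were 0.23 and 0.25. Of the large subunit genes 10 of 34 were at least 0.32 log2 units above the median gene at 60 min and 5 below. In the small subunit 0 of 17 were above and 1, *MRP2*, was below, beside the 19.5% and 19.4% of all genes. At 20 min 8 large and 1 small subunit genes were above, and 5 and 4 below, beside 837 and 937 of all 4861 genes. At 40 min 7 and 0 were above, and 8 and 1 below, beside 888 and 972. From 20 to 60 min 2 genes of each subunit were above and 2 of each below. A change before 20 min cannot be told from an effect of the single 0 min library. All 17 small subunit genes were lower than at 0 min at each of the 3 later times as deposited. So were 25 of 34 large subunit genes and 79.6% of all genes. Genes are not replicates, so no test of this difference is given.

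H3K4me3 of the mitochondrial ribosomal protein genes differed little between times. Their median level was 5.22, 4.93, 5.20 and 4.72, and that of all genes past the filter 5.05, 4.80, 4.99 and 4.398. At 60 min 43 of 52 were below their 0 min level as deposited, beside 88.7% of all genes, and 9 were above it. The median change was -0.14, or 90.6% of the 0 min level against 88.0% for all genes. It turned to 0.031 with scaling to column totals and to 0.16 with scaling to the lowest 5% of genes. Relative to the median gene it was 0.042, and 18 of 52 lay below that gene where 50% of all genes do. Among genes of similar length, the relative median was 0.023.

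No mitochondrial ribosomal protein gene reached a 1.5-fold lower H3K4me3 at 60 min (0 of 52, beside 1.2% of all genes). At least 0.32 log2 units above the median gene were 2 of 52 (2.88% of all genes), and 0 of 52 were as far below it (2.76%). From 0 to 40 min 0 of 52 were that far above it (1.39%), and from 20 to 60 min 1 of 52 (2.38%). *MRPL37* (mL54), of the large subunit, was highest, with 3.16, 2.99, 3.71 and 3.57, a relative change of 0.36. *MRPL51* (mL43), whose region overlaps 1 other annotated gene, had 5.24, 5.74, 6.32 and 5.84 and a relative change of 0.34. *MRPL37* was below its 0 min level at 20 min and *MRPL51* at no time. *MRPL4*, with 6.87, 6.73, 7.58 and 7.46, followed at 0.30, and *MRPL28* at 0.28. Its 40 and 60 min values set *MRPL28* apart, since at 20 min it stood at 0.0049.

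The lowest H3K4me3 changes stayed within 0.32 log2 units of the median gene. *MRP4*, for the small subunit protein of family uS2, had 5.97, 5.76, 5.13 and 4.46, lower at each successive time, and a relative change of -0.23. Its region overlaps 1 other annotated gene. *MRPL7*, for the protein of family uL5 in the central protuberance, had 5.24, 4.63, 5.05 and 3.93, also at -0.23. *MRP7* had 5.26, 4.36, 4.75 and 4.01 (-0.21), and *MRPS16*, of family bS16, had 5.67, 4.75, 5.21 and 4.38 (-0.19). *MRP7* and *MRPS16* were already as low relative to the median gene at 20 min, at -0.20 and -0.19. *MRP7* is the 1 gene among the lowest 4 in both marks. *MRP1* (mS43), with 5.60, 5.56, 6.40 and 4.94, had the widest range of H3K4me3 over the libraries after rapamycin, 0.37 log2 units. Its relative change at 60 min was 0.0035.

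Higher H3K4me3 than at 0 min at all 3 later times was seen as deposited at 5 of 52 genes, beside 7.07% of all genes. These were *MRP2*, *MRP20*, *MRPL51*, *MRPL17* and *MRPS12*, the last for the decoding-site protein of family uS12. All 3 later times lay below 0 min at 18 of 52 genes, beside 41%. The conserved and the mitochondria-specific families differed slightly in H3K4me3, by less than other processing choices moved some medians. Their relative medians at 60 min were 0.021 over 35 genes and 0.079 over 17. Below the median gene lay 15 of 35 and 3 of 17 genes, beside 50% of all genes. The 2 classes also differ in median length, at 699 and 474 bp. Length and H3K4me3 change at 60 min had a rho of -0.21 over 51 of these genes. In H3K36me3 the relative medians of the classes were 0.021 and 0.035.

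Gene by gene, the relative changes of the marks showed little relation. Across the 51 genes past both filters, 21 were above the median gene in both marks at 60 min, beside 27.7% of all genes, and 11 below it in both, beside 28.5%. H3K36me3 was below and H3K4me3 above the median gene at 12 genes, beside 22.4% of all genes, and the reverse held at 7, beside 21.3%. The relative changes of the marks had a rho of 0.12 over 51 genes, against 0.18 over 4657 genes, while their 0 min levels had a rho of 0.56 against 0.70. *MRPL7* stood at 0.44 in H3K36me3 and -0.23 in H3K4me3. *MRPL4*, *MRP20* and *MRPL51* stood at -0.42, -0.20 and -0.25 in H3K36me3 and at 0.30, 0.26 and 0.34 in H3K4me3. *MRP2* was the most unlike, at -1.80 and 0.25.

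**Figure D3:**
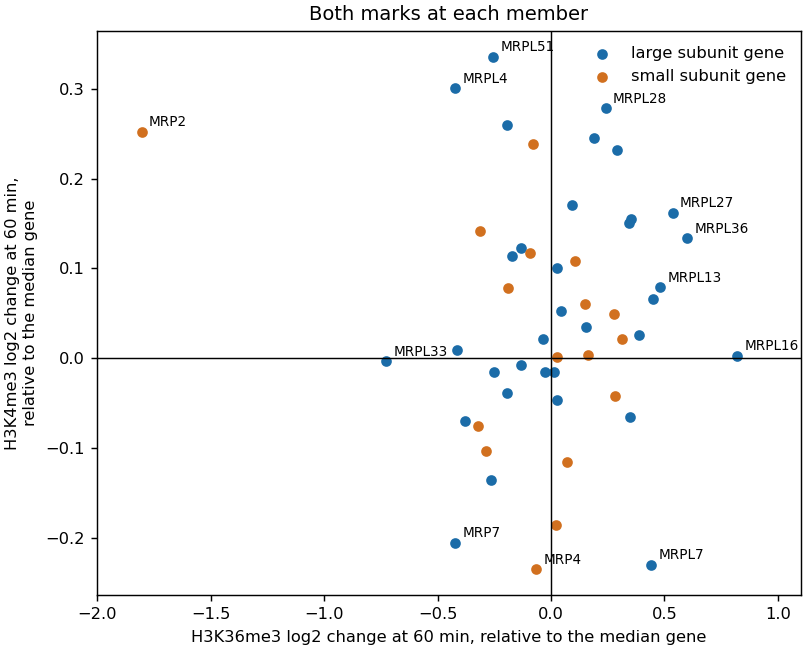
Log2 change at 60 min relative to the median gene for H3K36me3 (horizontal axis) and H3K4me3 (vertical axis), 1 point per mitochondrial ribosomal protein gene past both filters, coloured by subunit. Points fill all 4 quadrants, with 21 of 51 genes above the median gene in both marks, and *MRP2* stands alone at -1.80 in H3K36me3.

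Step by step, most of the H3K36me3 difference lay between 0 and 20 min and between 40 and 60 min, as it did for all genes. The median change was -0.39 from 0 to 20 min, 0.059 from 20 to 40 min and -0.24 from 40 to 60 min, against -0.41, 0.048 and -0.27 for all genes. From 0 to 20 min 46 of 51 genes were lower (88.4% of all genes). From 20 to 40 min only 22 of 51 were lower (41.8%), and from 40 to 60 min 46 of 51 (89.1%). H3K4me3 was also lower, higher and lower over the 3 steps, but with its largest step last, at medians of -0.070, 0.099 and -0.17. Genes lower at these steps were 38 of 52, 15 of 52 and 51 of 52, beside 67.4%, 33.1% and 96.4% of all genes. The 1 gene higher in H3K4me3 at 60 than at 40 min was *MRPL31* (mL60), at 4.48 and 4.41.

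Between the 20 and 60 min libraries, the relative H3K36me3 changes of these genes spread less than those of all genes. Their middle 50% spanned 0.24 log2 units, against 0.38. This did not hold at each step, with 0.38 against 0.34 from 20 to 40 min and 0.25 against 0.30 from 40 to 60 min. From 20 to 60 min the genes for mitochondrial translation factors spanned 0.26 and those for mitochondrial aminoacyl-tRNA synthetases 0.27. The other nuclear genes for mitochondrial ribosomal proteins spanned 0.35. From 20 to 60 min, a change that does not use the 0 min library, 4 of 51 were at least 0.32 log2 units below the median gene (13.5% of all genes) and 4 above it (12.7%). *MRPL44*, named above for its low level, stood lowest at -0.61, after a relative value of 0.65 at 20 min. Both values use the single 20 min library, and its levels lie near the filter of 0.219. *MRPL31* (-0.49), *MRP2* (-0.44) and *MRP21* (-0.38) followed. *MRP4* was highest at 0.44, with H3K36me3 of 1.43, 0.748, 0.972 and 0.871. It was lowest in that same 20 min library, at -0.51 relative to the median gene, and higher at both later times. *MRPL16* (0.43), *MRPS12* (0.41) and *MRP20* (0.33) were the others, and *MRPS12*, with 1.43, 0.757, 1.00 and 0.858, had the same shape as *MRP4*. *MRPL31*, *MRP21* and *MRPS12* are named here because they passed that bound.

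The genes lie on 12 chromosomes, at most 9 of them on 1 (chromosome IV), and no 2 are direct neighbours. An upstream neighbour on the other strand, with which a promoter region may be shared, was annotated for 55.8% of them and for 51.7% of all 5112 genes with a neighbour record. The gap to the upstream neighbour ran from 155 to 785 bp. The relative H3K4me3 median at 60 min was 0.0035 over the 29 genes with a divergent neighbour and 0.101 over the 23 with a tandem one. This difference is under 0.1 log2 units, within what processing choices move medians. Of these 23, 5 lay below the median gene, against 13 of the 29. Over all genes 1131 of 2270 with a tandem neighbour did, and 1252 of 2492 with a divergent one. The divergent and tandem medians over all genes were -0.0012 and 0.00042. In H3K36me3 the relative medians of the mitochondrial ribosomal protein genes were 0.021 (divergent) and 0.027 (tandem). Divergent partners lay on the same side of the median gene about as often as over all genes. In H3K4me3, 14 of 27 pairs did, beside 53.1% of 1075 pairs over all genes. In H3K36me3 12 of 23 did, beside 52.2% of 1040 pairs.

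The other nuclear genes for mitochondrial ribosomal proteins, such as the *RSM* and *IMG* genes, had similar medians at 60 min and a wider spread in H3K36me3. All 23 passed both filters. Their median H3K36me3 change at 60 min was 0.039 above the median gene, and that of H3K4me3 0.096 above it. At 20 min the relative H3K36me3 median was -0.099, against 0.024 for the *MRP*, *MRPL* and *MRPS* genes. The middle 50% at 60 min spanned 0.72 log2 units, against 0.47. At least 0.32 log2 units below the median gene in H3K36me3 were 8 of 23 and above it 5 of 23, beside the 19.4% and 19.5% of all genes. *RSM19*, for a small subunit protein, was lowest, with 0.521, 0.255, 0.176 and 0.173 and a relative change of -0.89, and *PET123*, also of the small subunit, highest, with 1.11, 1.05, 1.12 and 1.01 and 0.52. The 40 and 60 min H3K36me3 levels of *RSM19* lie below the filter of 0.219. *RSM19* was also the highest of these genes in H3K4me3, at 0.28, and *NAM9*, for the protein of family uS4, the lowest at -0.17. *RSM19* is the upstream tandem neighbour of *MRPS12*, 229 bp away. *MRPS12* stood at 0.24 in H3K4me3, near *RSM19*, and at -0.080 in H3K36me3, far from it.

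Translational activators bring single mitochondrial mRNAs to these ribosomes. Their genes changed about as much as the median gene in both marks at 60 min, but not at 20 min. Over 12 genes the relative medians at 60 min were 0.032 for H3K36me3 and 0.037 for H3K4me3. At 20 min they were 0.18 and 0.12, and at 40 min 0.25 and 0.0055. *PET122*, for an activator of the *COX3* mRNA, was lowest in both at 60 min, at -1.12 and -0.39. *CBS1*, for an activator of the *COB* mRNA, was highest in H3K36me3 at 0.70, from a low 0 min level of 0.271, and *CBP3*, which also acts on cytochrome b, in H3K4me3 at 0.31.

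The nuclear genes of the respiratory chain and ATP synthase had a relative H3K36me3 median of -0.056 at 60 min over 34 genes. Their H3K4me3 median was 0.010 over 36. They ran from *QCR8* at -1.73 to *COX4* at 0.95 in H3K36me3, and from *QCR6* at -0.36 to *SDH4* at 0.46 in H3K4me3. The cytosolic ribosomal protein genes stood lower than the mitochondrial ones in both marks at 60 min, at -0.15 and -0.090 over 135 genes, with 90 and 95 of 135 below the median gene against 23 of 51 and 18 of 52. At 20 min their relative medians were 0.015 and 0.022, against 0.024 and -0.0086, and at 40 min -0.0024 and -0.059, against -0.0027 and 0.024. Their extremes were *RPL38* at -1.14 and *RPS22B* at 0.99 in H3K36me3, and *RPS13* at -0.51 and *RPL41A* at 0.42 in H3K4me3. Many cytosolic ribosomal protein genes have a near-identical copy with which reads may be split. Their 0 min H3K36me3 was higher, with a median of 1.93 against 1.152. No test between lists is given.

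**Figure D4:**
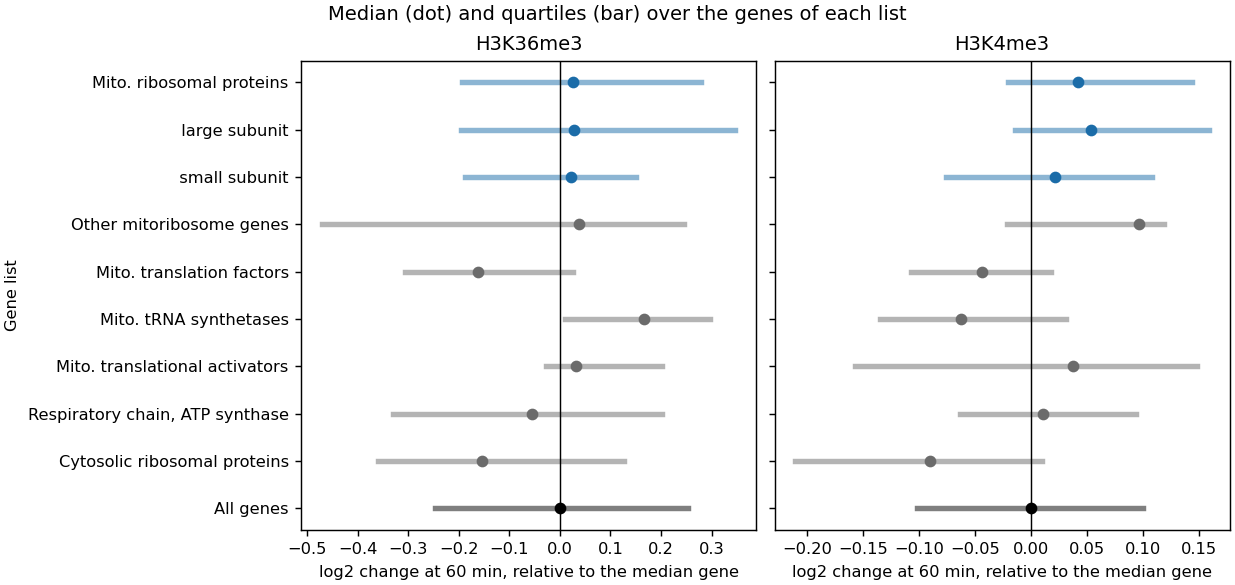
Log2 change at 60 min relative to the median gene (horizontal axis), as the median (dot) and the 25th to 75th percentile (bar) over the genes of each list past the filter, for the mitochondrial ribosomal protein genes, their subunits, other lists of mitochondrial gene expression, the cytosolic ribosomal protein genes and all genes. The mitochondrial ribosomal protein genes lie at 0.027 and 0.042, and the cytosolic ones at -0.15 and -0.090.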

How the data were processed

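Signal per gene was deposited by the authors as 1 table that holds 8 columns of values, and these were read as immunoprecipitated libraries (8, beside 8 inputs in the labels) by mark and time. The submitters' processing notes name Bowtie2, SAMtools, bedtools, sacCer3 and ASM294v2, without a version or role. *Schizosaccharomyces pombe* cells made up a 25% spike-in according to the labels' protocols. No source here states whether the signal was divided by input, spike-in or length.

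Values of 5218 genes were used, and 5115 matched the R64 table, which is the assembly sacCer3 names. Strand was read from the systematic name. The pseudocounts were 0.0108 for H3K36me3 and 0.0491 for H3K4me3, and the filters 0.219 and 1.17. Changes, medians and counts were computed with Python 3.11.15, numpy 2.4.6 and pandas 2.3.3. Simulated levels were used to check that a known median change and a known relative shift were recovered. Counts were not checked in this way. Genes were named by rule: per mark the 4 lowest and 4 highest changes at 60 min, the 2 highest and 2 lowest 0 min levels, the 2 widest ranges after rapamycin, and the extremes of each other list. Of 26 other mitochondrial ribosome symbols listed, 2 matched no R64 symbol. Genes and lists were chosen with earlier results of these data known. The alternatives covered pseudocount, filter, scaling, left-out times, overlaps and background.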

Additional observations from a re-analysis of the deposited data

How the results depend on the processing

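No paired analysis was possible because each mark and time has 1 library. Scaling to column totals turned the median change of the mitochondrial ribosomal protein genes to 0.039 for H3K36me3 and 0.031 for H3K4me3, and scaling to the lowest 5% of genes gave -0.021 and 0.16. Under both, 2 genes were at least 1.5-fold lower in H3K36me3, in place of 29. From 20 to 60 min the H3K36me3 median was -0.18, with 4 genes 1.5-fold lower and 4 at least 0.32 log2 units above the median gene, and 1 gene was that far above in H3K4me3. From 0 to 40 min the medians were -0.36 and 0.021, the relative H3K36me3 median was -0.0027, 14 genes were 1.5-fold lower in H3K36me3 and 0 genes at least 0.32 log2 units above the median gene in H3K4me3. Among genes that overlap no other gene 1 was, as it was against genes of similar length, and the H3K4me3 difference between subunits was -0.00038 in place of 0.032. Differences under 0.1 log2 units between medians are within what these choices move.

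Relative to the median gene, H3K36me3 from 20 to 60 min turned sign at *MRP20* (0.33), *MRPL13* (-0.076), *MRPL27* (-0.082), *MRPL33* (0.085), *MRPL4* (0.11) and *MRPL44* (-0.61). The H3K36me3 change of *MRPL39* at 60 min turned to 0.021 with a pseudocount of 5%. With that pseudocount *MRP2* moved to -1.63 and *MRPL33* to -0.59 relative to the median gene. H3K4me3 turned at *MRP1* (-0.048, and -0.016 against genes of similar length) and *MRPS16* (0.0039). Leaving out *MRP2*, chosen after seeing the data, moved no median by over 0.1 and no count by over 1.5 times. The causes were not tested. Depth is unknown, so counting error at short genes such as *MRP2*, *MRPL33* and *MRPL39* cannot be bounded.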

Other observations

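Genes for mitochondrial aminoacyl-tRNA synthetases, which charge the tRNAs these ribosomes use, had low H3K36me3 at 0 min, with a median level of 0.479 over 13 genes and a median percentile of 16.8. Relative to the median gene their H3K36me3 median was 0.39 at 20 min, 0.24 at 40 min and 0.17 at 60 min, and that of H3K4me3 was -0.11, -0.085 and -0.063. *MSW1*, for the tryptophan enzyme, was highest in H3K36me3 at 0.55, with 0.635, 0.674, 0.608 and 0.595, and *MSK1*, for the lysine enzyme, lowest at -0.62. In H3K4me3 *MSM1*, for the methionine enzyme, stood at 0.17 and *MSF1*, for the phenylalanine enzyme, at -0.22.

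Genes for mitochondrial translation factors had a relative H3K36me3 median of -0.16 and an H3K4me3 median of -0.044 at 60 min over 8 genes. *RRF1*, for the ribosome recycling factor, had H3K36me3 of 0.758, 0.515, 0.452 and 0.276, and stood lowest at -0.78, while *MRF1*, for the release factor, stood highest at 0.43. In H3K4me3 *MEF1*, for an elongation factor, was lowest at -0.16 and *AIM23*, for an initiation factor, highest at 0.098.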
